A study of Homo sapiens with 12 samples.

Results

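FENDRR and its 4 neighbours FOXF1, MTHFSD, FOXC2 and FOXL1 lie together on the long arm of chromosome 16, and they are the 5 genes described here of 58051 genes counted. They were chosen by the large difference in FENDRR between afatinib-resistant Cal27 cells and Cal27 parental cells, so the values of that comparison are given as a description, with no test. RNA was sequenced from FaDu, a squamous carcinoma line of the hypopharynx, and Cal27, a squamous carcinoma line of the tongue, both labelled as wild type in genotype. Afatinib-resistant (AfaR) and erlotinib-resistant (ErlR) cells were derived from each line by stepwise escalation of the drug. Afatinib blocks the ERBB family of receptors and erlotinib blocks EGFR, a member of that family. Each of the 6 groups (FaDu parental, FaDu AfaR, FaDu ErlR, Cal27 parental, Cal27 AfaR and Cal27 ErlR) has 2 libraries. Each resistant group is a single derived population, so the spread between its libraries does not cover the spread between independently derived populations. By the methods, the resistant cells were kept under selection and taken off drug for a day before experiments.

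FENDRR is a long noncoding RNA that starts next to FOXF1 and is transcribed away from it. In the embryo it marks lateral mesoderm and the mesenchyme of the lung, and it has been described as a partner of the chromatin complexes PRC2 and MLL. FOXF1, FOXC2 and FOXL1 encode forkhead transcription factors of mesenchyme. FOXF1 is needed for lung and gut mesenchyme and responds to Hedgehog signals, FOXL1 marks the mesenchyme under the gut epithelium, and FOXC2 acts in lymphatic vessels and mesenchyme. MTHFSD encodes an RNA-binding protein and is not part of the forkhead family.

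On GRCh38, FENDRR (ENSG00000268388) covers chr16:86474529-86509099 on the minus strand, with 6795 exonic bases in 6 exon blocks. FOXF1 (ENSG00000103241) covers chr16:86510527-86515418 on the plus strand, with 3516 exonic bases, and 1427 bases separate the FENDRR and FOXF1 bodies. MTHFSD (ENSG00000103248) covers chr16:86530176-86555235 on the minus strand with 6863 exonic bases, and it stands between the head-to-head pair and the other forkhead genes. FOXC2 (ENSG00000176692) covers chr16:86567251-86569728 on the plus strand and consists of 1 exon block of 2478 bases, of which 145 are shared with FOXC2-AS1 on the other strand. FOXL1 (ENSG00000176678) covers chr16:86576368-86582160 on the plus strand with 3742 exonic bases. From the far end of FENDRR to that of FOXL1 the stretch measures 107632 bases.

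RefSeq windows (GRCh38.p14) were at hand for FENDRR and MTHFSD. They are printed because FENDRR is the gene by which the stretch was chosen and MTHFSD is the gene with a steady level beside it. The FENDRR window is chr16:86508811-86509110 on the minus strand, from 250 bases before the RefSeq start to 50 bases after it, and the MTHFSD window is chr16:86555236-86555485 on the minus strand, the 250 bases before the start. Capitals mark a match to the forkhead motif GTAAACA. The 5′ end of FENDRR in the counting annotation also lies inside its window.
FENDRR: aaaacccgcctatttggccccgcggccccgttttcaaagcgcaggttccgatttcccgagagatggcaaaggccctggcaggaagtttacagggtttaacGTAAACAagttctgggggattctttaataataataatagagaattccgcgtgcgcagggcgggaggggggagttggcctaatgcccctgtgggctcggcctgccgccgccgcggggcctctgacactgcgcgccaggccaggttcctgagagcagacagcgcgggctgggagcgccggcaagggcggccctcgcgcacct
MTHFSD: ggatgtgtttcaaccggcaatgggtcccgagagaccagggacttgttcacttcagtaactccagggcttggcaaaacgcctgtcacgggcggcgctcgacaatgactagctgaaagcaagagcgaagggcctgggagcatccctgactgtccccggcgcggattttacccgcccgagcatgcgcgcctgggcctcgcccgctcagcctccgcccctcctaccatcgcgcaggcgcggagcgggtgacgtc

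The FENDRR window held 1 forkhead motif, at position 101 from its 5′ end, while 3.42% of 35116 windows held the motif on either strand. No match was found in the FENDRR window for the other motifs searched on both strands, namely GGGTGGT (GLI core, in 4.77% of windows), CAGGTG (E-box, 20.6%), TGACTCA (AP-1, 4.95%), TATAAA, the core promoter box (11.5%), and GGAATG (TEAD, 14.03%). The MTHFSD window held none of the motifs searched. The FENDRR window had a GC content of 62.3% and 26 CpG dinucleotides, and the MTHFSD window had 64.8% and 24, against medians of 58.7% and 14 over all windows. A match describes letters only and is not a site of binding.

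Libraries held from 16334937 to 23399259 counts on genes, with a median of 16584450. Levels are given as CPM, the usual unit of counts relative to library size, after TMM scaling of all 12 libraries, as mean ± SD (n = 2), and a count of 3 in a single library equals between 0.123 and 0.196 CPM. A gene passed the test at a Benjamini-Hochberg adjusted p under 0.05 from edgeR's quasi-likelihood test over the 6 libraries of a line, and was called when its log2 fold change was also over 1 in size. Squamous markers (8 genes, KRT5, KRT14 and TP63 among them) were present in each group, with a summed level of 878 to 979 CPM in Cal27 AfaR, 3866 to 4934 in Cal27 parental and at least 4665 in each other library. Leukocyte markers (5 genes) summed to 3.94 to 6.74 CPM.

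FENDRR was abundant in 1 of the 6 groups, Cal27 AfaR. Its count was 1069 and 818 in the Cal27 AfaR libraries, 16 and 26 in Cal27 ErlR, 4 and 1 in Cal27 parental, 4 and 4 in FaDu ErlR, 0 and 1 in FaDu AfaR, and 0 and 0 in FaDu parental. Both Cal27 AfaR libraries therefore lay above each of the other 10, and both Cal27 ErlR libraries above each of the remaining 8. The levels were 52.6 ± 7.24 CPM in Cal27 AfaR, 1.30 ± 0.400 in Cal27 ErlR, 0.258 ± 0.0041 in FaDu ErlR and 0.146 ± 0.123 in Cal27 parental. FaDu AfaR, at 0.0206 CPM, and FaDu parental, at 0, overlapped at the bottom of this order. By level per kb of exons, FENDRR ranked 41 of 14157 long noncoding RNA genes in Cal27 AfaR and 1717 in Cal27 ErlR. In bulk RNA, a higher level in each cell and a larger share of cells with the transcript cannot be told apart.

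FOXF1, the forkhead gene on the other side of the shared start region, was highest in the same groups at lower counts. The Cal27 AfaR libraries held 444 and 294 FOXF1 counts and the Cal27 ErlR libraries 11 and 23, against 2 and 4 in the parental libraries. In FaDu its counts were 3 and 3 in parental, 6 and 12 in AfaR, and 4 and 2 in ErlR. The mean level was 20.5 ± 4.88 CPM in Cal27 AfaR, 1.05 ± 0.496 in Cal27 ErlR and 0.392 ± 0.143 in FaDu AfaR, and these groups did not overlap with one another. FaDu ErlR, Cal27 parental and FaDu parental, between 0.151 and 0.193 CPM, overlapped and could not be ordered. Among 45 FOX genes, FOXF1 ranked 10 by level per kb in Cal27 AfaR and 23 in Cal27 ErlR.

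FOXC2 and FOXL1, further along the stretch, did not follow this order. FOXC2 had 29 and 46 counts in Cal27 AfaR and none in either Cal27 ErlR library, with 3 and 4 in the parental libraries. In FaDu it had 5 and 12 counts in parental, 12 and 11 in AfaR, and 2 and 3 in ErlR, so parental and AfaR overlapped. A FOXC2-AS1 read can be told from a FOXC2 read only where strand was used in counting, which is not given in the sources used here, but FOXC2-AS1 itself had at most 1 count in any library.

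FOXL1 was highest in FaDu, where the counts were 36 and 30 in parental, 77 and 119 in AfaR, and 29 and 86 in ErlR. In Cal27 the FOXL1 counts were 4 and 5 in parental, 37 and 20 in AfaR, and 0 and 2 in ErlR. The FOXL1 level was 4.31 ± 0.820 CPM in FaDu AfaR, 3.74 ± 2.66 in FaDu ErlR, 1.65 ± 0.133 in FaDu parental and 1.58 ± 0.591 in Cal27 AfaR. The FaDu ErlR libraries lay on either side of the FaDu AfaR libraries, and FaDu parental overlapped with Cal27 AfaR.

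MTHFSD was the steady gene of the stretch. Its level was 19.6 ± 1.40 CPM in FaDu parental, 18.9 ± 2.39 in FaDu AfaR and 16.9 ± 2.47 in FaDu ErlR. In the Cal27 groups MTHFSD was at 12.3 ± 0.234 CPM in parental, 10.3 ± 2.16 in AfaR and 10.1 ± 0.493 in ErlR. Each FaDu library lay above each Cal27 library, while the 3 FaDu groups overlapped one another. MTHFSD held between 65.1% and 88.9% of the summed level per kb of the 5 genes in the other 5 groups, and 9.17% in Cal27 AfaR, where FENDRR held 47.3% and FOXF1 35.7%.

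**Figure D1:**
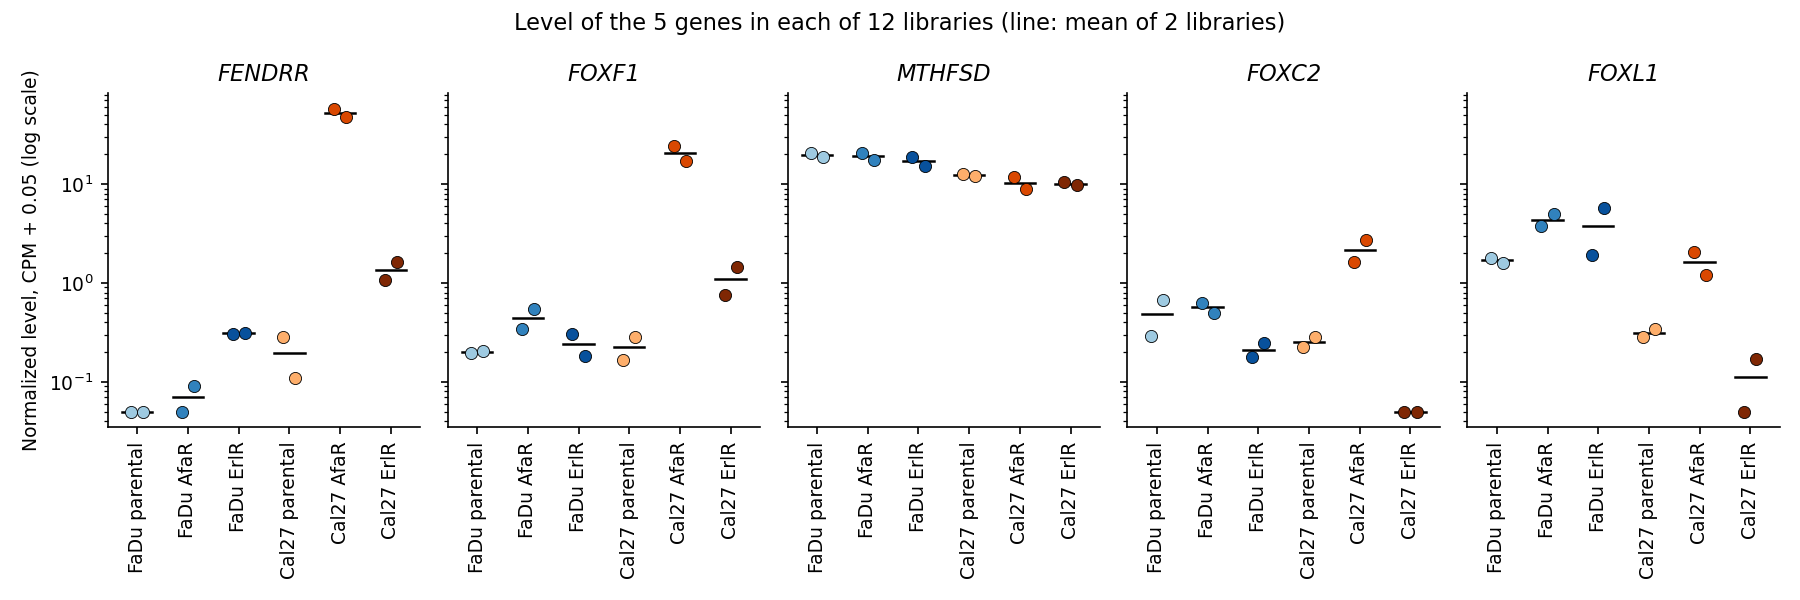
Level of each of the 5 genes (CPM + 0.05, log axis) in the 12 libraries, with points for libraries and a line for the mean of 2 libraries. FENDRR and FOXF1 stand at 52.6 and 20.5 CPM in Cal27 AfaR and near 1 CPM in Cal27 ErlR, FOXL1 is highest in FaDu AfaR and FaDu ErlR, and MTHFSD lies between 8.76 and 20.6 CPM throughout.

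The first comparison, Cal27 AfaR against Cal27 parental, is the one on which the genes were selected. Here FENDRR had 1887 counts against 5, a ratio of 362 (95% exact interval 155 to 1117, for counting error only), and a fitted log2 fold change of 8.43 (SE 0.38). FOXF1 had 738 counts against 6, a ratio of 118 (54.0 to 323), with a log2 fold change of 6.82. The 2 more distant forkhead genes had smaller ratios. FOXC2 had 75 counts against 7, a ratio of 10.3 (4.75 to 26.5), and FOXL1 had 57 against 9, a ratio of 6.08 (2.99 to 13.97). MTHFSD, which stands between them and the pair, had a log2 fold change of -0.25. Of all genes tested, 19.6% were called in this comparison, 11.5% higher and 8.06% lower. The 5 FENDRR counts of Cal27 parental were uneven, and the log2 fold change was 9.65 without parental replicate 1 and 7.78 without parental replicate 2. FOXC2 and FOXL1 entered the Cal27 fit only through their counts in Cal27 AfaR.

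Markers of other cells moved in the same comparison. In Cal27 AfaR, 7 of 8 squamous markers were called lower, against 8.06% of all genes. Of 5 tested fibroblast markers 3 were called higher, against 11.5% of all genes. These were COL1A1 (269 ± 5.27 CPM), LUM (33.5 ± 13.2) and PDGFRB (12.3 ± 0.639). The 9 fibroblast markers summed to 315 to 326 CPM in Cal27 AfaR and to 30.2 to 41.7 in Cal27 parental, and COL1A1 made up most of both sums. COL1A2 (adjusted p = 0.0947) and COL3A1 (adjusted p = 0.847) did not pass, and PDGFRA, DCN, THY1 and FAP were too low to be tested. FAP was at 0 in Cal27 parental and at 0.0540 CPM in Cal27 AfaR, and DCN at 0.0582 and 0.0580 CPM. In the libraries of the other groups the fibroblast sum was at most 10.6 CPM. Endothelial markers (7 genes) summed to 31.8 to 33.5 CPM in Cal27 parental and 30.3 to 37.7 in Cal27 AfaR, and smooth muscle markers (5 genes) to 4.07 to 5.01 and 6.26 to 7.60 CPM. Of the 7 endothelial markers, KDR and EMCN were at 0 in Cal27 parental, while 4 had more than 3 counts in a library there. The part of these markers in the FENDRR and FOXF1 values was not tested.

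**Figure D2:**
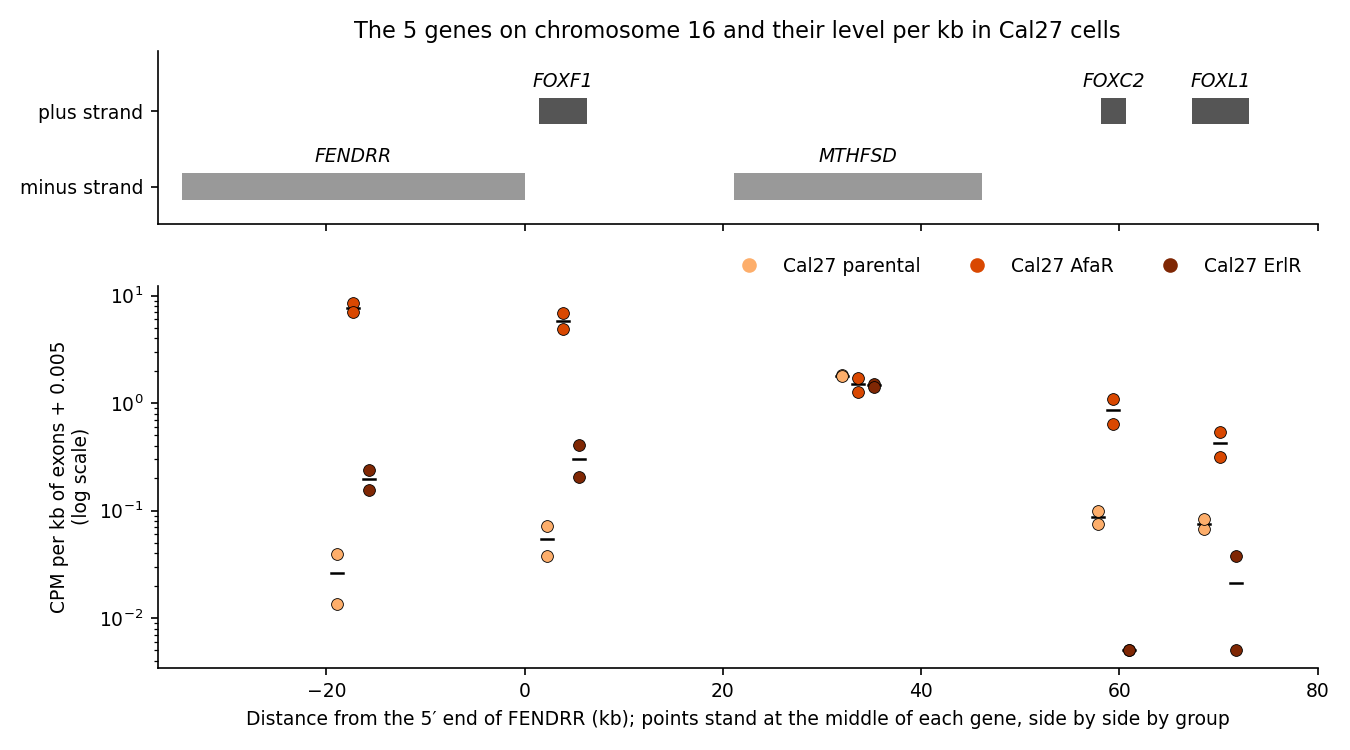
Top, the bodies of the 5 genes by strand along chromosome 16 (kb from the 5′ end of FENDRR). Bottom, their level per kb of exons in Cal27 libraries (CPM per kb + 0.005, log axis), with points for libraries and lines for means. FENDRR and FOXF1 reach 7.73 and 5.83 CPM per kb in Cal27 AfaR, above MTHFSD, while FOXC2 and FOXL1 are at or near the bottom of the axis in Cal27 ErlR.

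Cal27 ErlR against Cal27 parental asks whether the pair also differed in cells selected with the other drug. FENDRR rose from 0.146 ± 0.123 to 1.30 ± 0.400 CPM, with 42 counts against 5, a ratio of 9.00 (95% exact interval 3.57 to 29.1). Its log2 fold change was 3.08 (SE 0.54, adjusted p = 0.00335), and both ErlR libraries lay above both parental libraries. FOXF1 rose from 0.175 ± 0.0826 to 1.05 ± 0.496 CPM, with 34 counts against 6, a ratio of 6.07 (2.52 to 17.7), a log2 fold change of 2.52 (SE 0.60) and an adjusted p of 0.0135. These were the 2 of 5 genes called, against 13.5% of all genes, of which 3.56% were called higher and 9.92% lower. This comparison shares its parental libraries with the one that selected the genes, so low parental counts enter both. FENDRR and FOXF1 also passed the filter on low counts only through the resistant libraries, where they are high, so the 2 calls are not independent of the selection. FENDRR had a log2 fold change of 4.31 without Cal27 parental replicate 1 and 2.44 without parental replicate 2, and stayed called. FOXF1 gave 1.97 with an adjusted p of 0.0582 without Cal27 ErlR replicate 2.

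The other 3 genes were not called in Cal27 ErlR. FOXC2 had 0 counts against 7 (adjusted p = 0.0543), and 0 counts in a group allow up to 3. FOXL1 had 2 counts against 9, a ratio of 0.238 (95% exact interval 0.0250 to 1.15), with an adjusted p of 0.205. MTHFSD had a log2 fold change of -0.31 (adjusted p = 0.299). The fibroblast markers summed to 5.36 to 10.6 CPM in Cal27 ErlR, with 3 of 5 tested ones called lower, against 9.92% of all genes. Of 8 squamous markers 3 were called lower, KRT14 (-3.19), DSG3 (-1.70) and KRT17 (-1.13), against the same share. Another 1 passed the test higher, under the fold limit. The squamous sum was 4665 to 4844 CPM in Cal27 ErlR and 3866 to 4934 in Cal27 parental. Of 3 tested endothelial markers 1 was called lower, CDH5 (-3.55), and the median log2 fold change of the 3 was 0.19. The part of these markers in the FENDRR and FOXF1 values was not tested.

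In FaDu AfaR, with 7.43% of all genes called (6.48% higher and 0.954% lower), 0 of the 3 genes tested were called by edgeR or DESeq2, and 1 had an unadjusted p under 0.05. This was FOXL1, whose level went from 1.65 ± 0.133 to 4.31 ± 0.820 CPM without overlap (log2 fold change 1.36, SE 0.47, adjusted p = 0.0729). FOXL1 was called when both ErlR libraries were left out of the fit (adjusted p = 0.0242), and also without FaDu ErlR replicate 1 (0.0203) or replicate 2 alone (0.0243). FOXC2 had a log2 fold change of 0.24 (adjusted p = 0.816) and MTHFSD of -0.07 (adjusted p = 0.800). FENDRR and FOXF1 had too few FaDu reads for the filter and were not tested. FOXF1 had 18 counts in FaDu AfaR against 6 in parental, a ratio of 2.66 (95% exact interval 1.01 to 8.19), and FENDRR 1 count against 0.

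In FaDu ErlR, with 2.05% of all genes called (1.54% higher and 0.504% lower), again 0 of 3 genes were called by edgeR or DESeq2, and FOXL1 alone had an unadjusted p under 0.05. FOXL1 gave a log2 fold change of 1.16 (SE 0.48, adjusted p = 0.203) from libraries at 1.85 and 5.62 CPM, the first of which was close to the parental level. Without FaDu ErlR replicate 1 the FOXL1 value was 1.75 and was called (adjusted p = 0.0380), and without replicate 2 it was 0.15. FOXC2 had a log2 fold change of -1.39 (adjusted p = 0.353) and MTHFSD of -0.22 (adjusted p = 0.508). FENDRR had 8 counts against 0, which is 3.43-fold higher with 3 counts over the parental group as the floor. The lower limit of the exact interval was 2.20. In a fit of all 12 libraries, where it passed the filter through the resistant Cal27 libraries, FENDRR was called in FaDu ErlR (adjusted p = 0.0489), and with no filter in the fit of 6 it was not (adjusted p = 0.280).

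The erlotinib effects were then compared between the lines in a fit of all 12 libraries, as Cal27 minus FaDu. The difference was -2.16 for FENDRR (adjusted p = 0.328), where the FaDu parental group is at 0, and 2.20 for FOXF1 (adjusted p = 0.152). It was -3.56 for FOXC2 (adjusted p = 0.214), -3.13 for FOXL1 (adjusted p = 0.109) and -0.08 for MTHFSD (adjusted p = 0.880). None of the 5 genes passed. FENDRR and FOXF1 entered this fit only through the resistant Cal27 libraries where they are high. The difference also uses the Cal27 parental libraries, which are among those of the selection. For FENDRR and FOXF1 the values are therefore a description. They cannot show whether the rise in Cal27 ErlR is particular to that line.

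Between the parental lines, with 31.6% of all genes called (19.1% higher and 12.5% lower in Cal27), FOXL1 was lower in Cal27 than in FaDu, with 0.262 ± 0.0415 against 1.65 ± 0.133 CPM and a log2 fold change of -2.63 (SE 0.68, adjusted p = 0.00549). MTHFSD was also lower, by a log2 fold change of -0.67 (SE 0.19, adjusted p = 0.00846), and passed the test without reaching the fold limit. Scaling to the ERCC spike-ins set the median of all genes at 0.62 in this comparison, and MTHFSD was then at -0.09 (adjusted p = 0.743). FOXF1 (log2 fold change 0.21, adjusted p = 0.841) and FOXC2 (-1.05, adjusted p = 0.241) did not pass. FENDRR had 5 counts in Cal27 parental against 0 in FaDu parental, 1.94-fold higher with 3 counts as the floor (lower limit of the exact interval 1.06). It entered this fit only through the resistant Cal27 libraries where it is high, and the Cal27 parental libraries are among those on which it was selected, so these counts are a description.

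FENDRR and FOXF1 were compared within libraries, since their ratio does not depend on library size. Per kb of exons, FENDRR was 1.25 times FOXF1 in Cal27 AfaR replicate 1 (95% exact interval 1.11 to 1.39) and 1.44 times in replicate 2 (1.26 to 1.65). In Cal27 ErlR the ratio was 0.753 and 0.585, and 0.639 over both (0.397 to 1.04). The intervals cover counting error only, and FENDRR in Cal27 AfaR is the value on which the genes were selected, so the ratios of the 2 models are set side by side with no test. In FaDu AfaR, where FOXF1 had 18 counts, the ratio was 0.0287 (0.00069 to 0.182), so FOXF1 reads were present there with 1 FENDRR read.

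**Figure D3:**
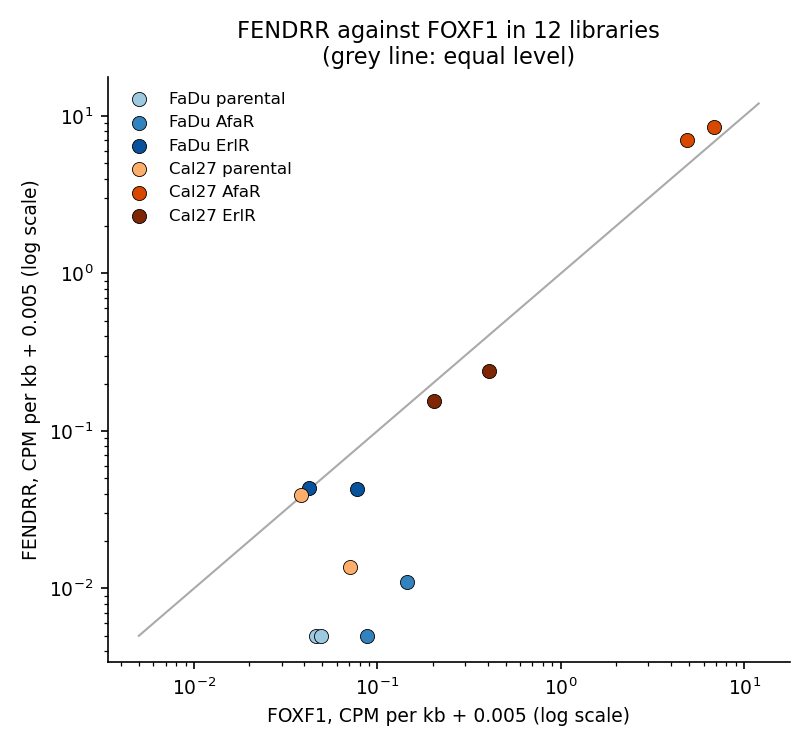
FENDRR against FOXF1 (CPM per kb + 0.005, both axes log) in 12 libraries, coloured by group, with a grey line at equal level. The Cal27 AfaR points lie just above the line, the Cal27 ErlR points just under it, and the FaDu AfaR points further under it, at a ratio of 0.0287.

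Over the 12 libraries, the correlation (Pearson) of log2(CPM + 0.5) with FENDRR was 0.987 for FOXF1, 0.734 for FOXC2, -0.09 for FOXL1 and -0.65 for MTHFSD. The 2 Cal27 AfaR libraries carry most of the range, so these values are descriptions. The 10 genes of 16366 with a pattern most like FENDRR were CMKLR2 (a chemerin receptor, 0.988), FOXF1, PCDHB10 (a protocadherin), SNAP25-AS1, GDNF (a neurotrophic ligand), TDO2 (which degrades tryptophan), TLR4 (the endotoxin receptor), SIPA1L2, SFMBT2 (a Polycomb-related protein) and CELSR3 (a large cadherin). All 10 had their highest mean level in Cal27 AfaR, from 0.782 CPM for TDO2 to 58.9 for SIPA1L2, and their second highest in Cal27 ErlR. TLR4, for example, was at 56.8 CPM in Cal27 AfaR, 5.61 in Cal27 ErlR and 1.83 in Cal27 parental. They were picked for likeness to FENDRR, so this order follows in part from the choice. Some second places were narrow, with TDO2 at 0.0930 CPM in Cal27 ErlR and 0.0653 in FaDu AfaR. CELSR3 was at 1.59 CPM in Cal27 ErlR and 1.54 in Cal27 parental. With 0.1 CPM added in place of 0.5, 2 of the 10 remained and FOXF1 ranked 22, whereas with 2 CPM added 6 remained and FOXF1 ranked 1.

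The genes most like the other members of the stretch were different, except for FOXF1. CMKLR2, TDO2, SNAP25-AS1 and PCDHB10 were among the 5 most like FOXF1 as well as the 10 most like FENDRR. FOXC2 went most closely with PELI2, PID1, RNF150, GNAO1-DT and DOCK10 (0.948 to 0.955), of which PELI2, PID1, RNF150 and DOCK10 had their lowest mean level in Cal27 ErlR and GNAO1-DT was at 0 there, in Cal27 parental and in FaDu ErlR. FOXL1 went with SESN3 (0.970), DECR1, SIAE, LRBA and PARM1, and SESN3 was at 15.3 CPM in FaDu AfaR and 4.87 in FaDu parental. MTHFSD went with MUTYH (0.965), POMT1, GUSB, USP8 and MAB21L4, which were higher in each FaDu group than in each Cal27 group.

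Around the stretch, the chromosome was almost without reads. Within 500 kb of FENDRR there were 24 other annotated genes, of which 18 had no count in any library and none had enough reads to be tested. The noncoding genes LINC01081, LINC01082 and LINC02135, which lie upstream of FOXF1 in a region known for its enhancers, had 0 counts in each of the 12 libraries, and LINC00917 had 1 count in each Cal27 AfaR library. The annotated genes on either side of the stretch, ENSG00000268473 and ENSG00000279142, were also at 0. Inside the stretch ENSG00000270020, RPL7AP63 and FLJ30679 had at most 6 counts in any library. The counts of FENDRR and FOXF1 in Cal27 AfaR thus stood in a region where MTHFSD was the one other gene with a level over 5 CPM in any group.

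Within 1 Mb on each side, 65 other genes were annotated, 34 had no count and 10 were tested. The nearest tested one on the FENDRR side was IRF8, a transcription factor of blood cells at 0.672 to 1.36 CPM in the 6 groups, and on the FOXL1 side it was C16orf95. In Cal27 AfaR, 1 of the 10 was called against 19.6% of all genes, C16orf74, which fell from 23.8 ± 4.63 to 6.88 ± 2.25 CPM (log2 fold change -1.79, SE 0.26, adjusted p = 0.000716). ZCCHC14 passed the test higher (0.70) and GINS2, a subunit of the replicative helicase complex, lower (-0.77), both under the fold limit. The median over the 10 was -0.11. In Cal27 ErlR 0 of 10 were called by edgeR or DESeq2 (2 with an unadjusted p under 0.05), and MAP1LC3B, an autophagy protein, passed at -0.50. In FaDu AfaR and FaDu ErlR 0 were called by either tool, with 4 and 1 genes under an unadjusted p of 0.05.

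**Figure D4:**
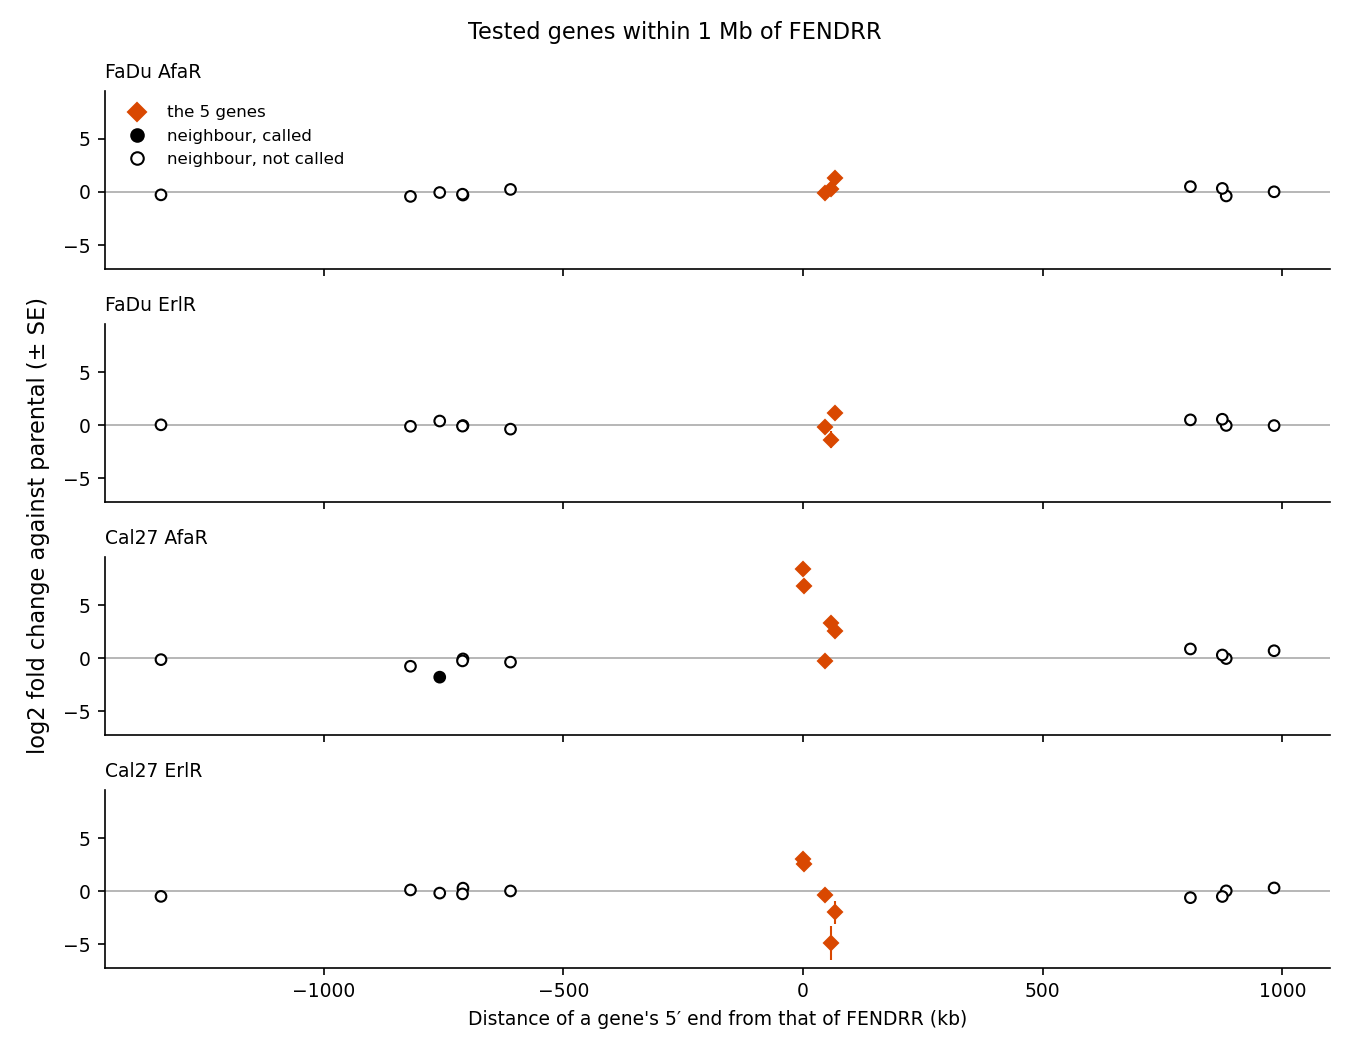
Log2 fold change against parental (± SE) of the genes tested within 1 Mb of FENDRR, by distance of the 5′ end from that of FENDRR (kb), in 4 comparisons. Diamonds are the 5 genes, filled circles neighbours that were called and open circles other neighbours. In Cal27 AfaR the diamonds reach 8.43 and the 10 neighbours stay between -1.79 and 0.87.

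Hedgehog signalling is known to act upstream of FOXF1 and FOXL1, and 14 genes of that pathway were followed. In Cal27 AfaR, 5 of 9 tested were called higher and 1 lower, against 11.5% and 8.06% of all genes, with a median log2 fold change of 2.66. The ligand SHH was at 7.40 ± 0.852 CPM in Cal27 AfaR and 0.233 ± 0.247 in Cal27 parental (4.95, adjusted p = 0.000285). The coreceptors GAS1 (4.79), BOC (3.35) and CDON (2.66) rose with it, as did the transcription factor GLI2 (3.52). SMO, the signal transducer, fell from 52.6 ± 7.63 to 15.8 ± 1.01 CPM (-1.73). PTCH1, the receptor and a common target of the pathway, was at 15.8 ± 2.43 CPM against 12.1 ± 6.40 and did not pass (adjusted p = 0.392). GLI1, another common target, was at 0.168 CPM in Cal27 AfaR and was not tested in Cal27.

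The Hedgehog list was also counted in the other models. In Cal27 ErlR, against 13.5% of all genes called, 0 of 9 were called higher and 2 lower by edgeR, SMO (-2.80, adjusted p = 5.92e-05) and PTCH1 (-1.20, adjusted p = 0.0320), DESeq2 called 2 and 3 had an unadjusted p under 0.05. SHH had 1.79 there (adjusted p = 0.0932). PTCH1 lost this call without Cal27 parental replicate 2 (-0.51), Cal27 ErlR replicate 1 (-1.02) or either Cal27 AfaR library. In FaDu AfaR, PTCH1 rose from 3.17 ± 0.508 to 7.42 ± 1.24 CPM (1.21, adjusted p = 0.0151), the 1 call of 8 tested against 7.43% of all genes, and this was lost without FaDu parental replicate 1 (1.04) or FaDu AfaR replicate 2 (1.03). In FaDu ErlR, 2 of 8 tested were called against 2.05% of all genes. PTCH1 was called higher (1.13, adjusted p = 0.0429) and SMO lower (-1.19, adjusted p = 0.0361). Both FaDu ErlR calls were lost with a replicate block (adjusted p = 0.0516 for PTCH1 and 0.0587 for SMO), and the SMO call with ERCC scaling (-0.68), under which the median of all genes was at 0.49 in FaDu ErlR and 0.18 in FaDu AfaR.

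The forkhead family outside the stretch (42 genes) split in both directions. In Cal27 AfaR, 5 of 26 tested were called higher and 3 lower, against 11.5% and 8.06% of all genes. FOXL2, a factor of the ovary, went from 2.21 ± 0.409 to 18.0 ± 0.679 CPM (3.02), and FOXN3 from 20.6 ± 2.91 to 72.2 ± 9.84 CPM (1.81). FOXO6 (2.20) and FOXD4 (1.94) were also called, and FOXA3 had 26 counts against 0. FOXA3 was thus 8.32-fold higher with 3 counts as the floor (lower limit of the exact interval 6.30). FOXA2 (-3.16), FOXQ1 (-2.10) and FOXA1 (-1.78) fell. FOXD4 lost its call without Cal27 parental replicate 1 (1.54), AfaR replicate 1 (1.71) or AfaR replicate 2 (2.16), FOXO6 without AfaR replicate 1 (1.52) and FOXA3 without AfaR replicate 2.

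In Cal27 ErlR, FOXA2 rose from 1.31 ± 0.699 to 8.49 ± 1.63 CPM (2.67), as did FOXD4 (2.06) and FOXD1 (1.43). FOXO6 (-2.91) and FOXA1 (-1.56) fell, and FOXP2 had 0 counts against 15. FOXP2 was thus 4.67-fold lower with 3 counts as the floor (lower limit of the exact interval 3.35). FOXD1 lost this call without Cal27 ErlR replicate 1 (0.84, adjusted p = 0.0664), FOXP2 without parental replicate 2 or either ErlR library, and FOXD4 without parental replicate 1 (1.67), parental replicate 2 (2.65) or ErlR replicate 1 (1.69). FOXA2 and FOXO6 had opposite signs in the 2 Cal27 models, and FOXD4 and FOXA1 the same sign, in comparisons that share parental libraries. In FaDu AfaR, FOXB1 (2.19), FOXN3 (1.66) and FOXE1 (1.43) were called higher and FOXQ1 (-1.92) lower. In FaDu ErlR, against 2.05% of all genes, no FOX gene outside the stretch was called by edgeR or DESeq2, with 7 of 25 under an unadjusted p of 0.05.

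The related forkhead cluster on chromosome 6, with FOXQ1, FOXF2, FOXC1 and the noncoding FOXCUT, holds the paralogs of FOXF1 and FOXC2. FOXF2, the paralog of FOXF1, was at 10.5 ± 2.01 CPM in Cal27 parental and 8.74 ± 0.841 in Cal27 AfaR (-0.26, adjusted p = 0.451), and at 15.5 ± 4.42 in Cal27 ErlR (0.54, adjusted p = 0.131). FOXC1, the paralog of FOXC2, was at 23.3 ± 0.0663 CPM in Cal27 parental and 12.7 ± 0.616 in Cal27 AfaR, a log2 fold change of -0.87 that passed the test. FOXC1 also passed in FaDu AfaR at -0.86, with FOXF2 at -0.69. FOXCUT was at most at 0.262 CPM in a group and was not tested. Neither paralog was called in any of the 4 models by edgeR.

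Subunits of PRC2 and MLL, the complexes with which FENDRR has been linked, were tested for 18 of 18 genes in both lines. In Cal27 AfaR, 1 of 18 was called, against 19.6% of all genes. This was JARID2, a PRC2 accessory protein, which fell from 56.0 ± 10.4 to 25.6 ± 5.89 CPM (-1.12, adjusted p = 0.00187). The JARID2 call was lost without Cal27 parental replicate 1 (-0.92) or AfaR replicate 2 (-0.89). The PRC2 core genes EZH2 (-0.26, adjusted p = 0.209) and SUZ12 (0.11, adjusted p = 0.492) did not pass, while EED, also of the PRC2 core, passed lower (-0.70, adjusted p = 0.00458) and PHF19, an accessory protein, higher (0.92, adjusted p = 0.000944), both under the fold limit. In Cal27 ErlR MTF2 was the 1 call of 18 (1.04), against 13.5% of all genes. The MTF2 call was lost with upper-quartile scaling (0.98) and without Cal27 parental replicate 2 (0.96). In FaDu AfaR, 2 of 18 were called, against 7.43% of all genes. ASH2L, a core MLL subunit, rose from 26.7 ± 4.83 to 94.5 ± 7.81 CPM (1.81, adjusted p = 0.000543) and PHF19 fell (-1.07). In FaDu ErlR 0 of 18 were called by edgeR or DESeq2, against 2.05% of all genes, and 7 had an unadjusted p under 0.05.

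Among 22 transcription factors of mesenchyme, 3 of 10 tested were called higher in Cal27 AfaR and 1 lower, against 11.5% and 8.06% of all genes. TWIST1, a factor of mesenchyme and of epithelial-mesenchymal transition, went from 3.15 ± 0.168 to 50.5 ± 5.09 CPM (4.00, adjusted p = 2.83e-06), and TBX3, a limb and mammary factor, from 0.902 ± 0.452 to 24.9 ± 3.59 CPM (4.78). OSR1 had 45 counts against 2, a ratio of 21.6 (95% exact interval 5.64 to 184). TBX4, which shares the lung mesenchyme with FOXF1, went the other way, with 1 count against 31, a ratio of 0.0310 (0.00076 to 0.186). Both low-count calls were lost without Cal27 parental replicate 2 or AfaR replicate 2, and TBX4 also without AfaR replicate 1. In Cal27 ErlR, where 3 of 10 were called against 13.5% of all genes, TBX3 (1.25) was called higher and GATA6 (-1.29) lower, and in FaDu AfaR 2 of 13 were called, BARX1 (3.15) and TWIST1 (1.24), against 7.43% of all genes. In FaDu ErlR, against 2.05% of all genes, 0 of 13 were called by edgeR and 1 by DESeq2, with 3 under an unadjusted p of 0.05.

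**Figure D5:**
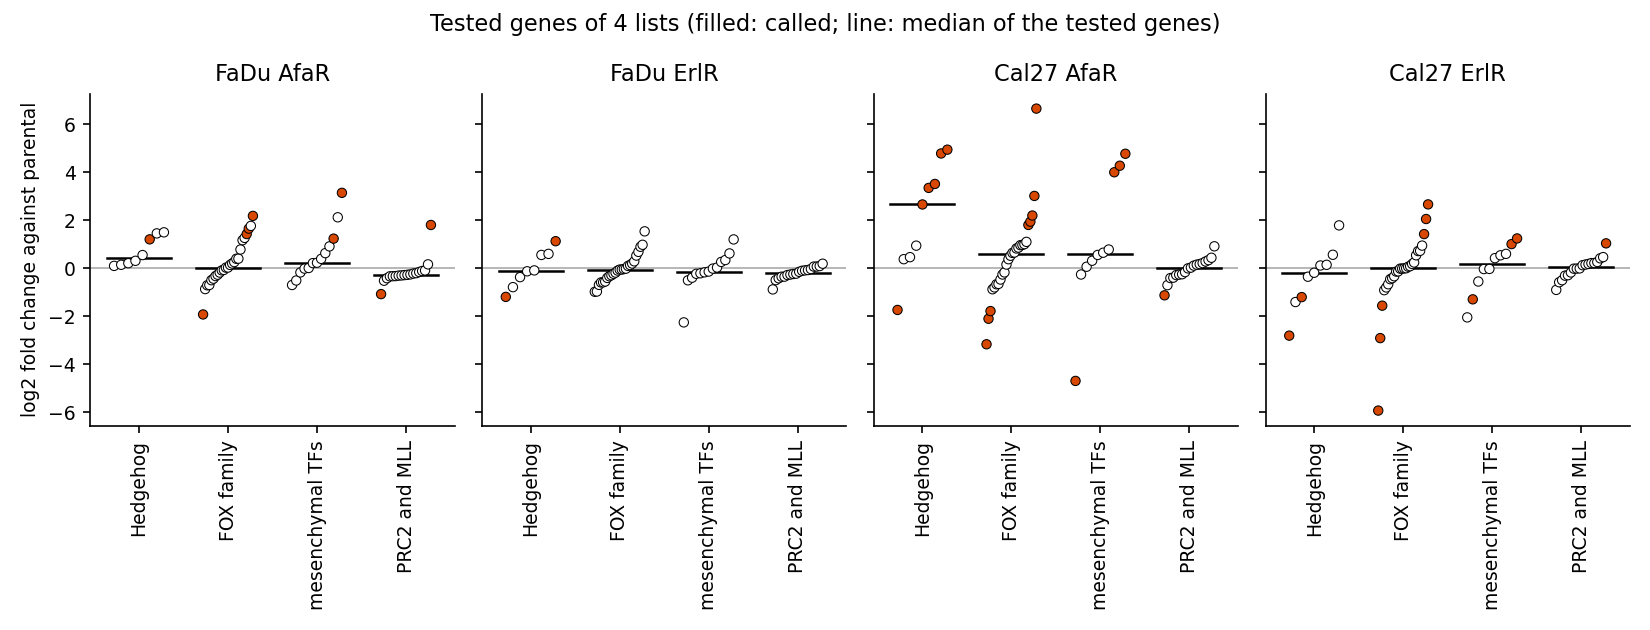
Log2 fold change of the tested genes of 4 lists in the 4 resistant models, each point a gene, filled where called, with a line at the median of the tested genes. In Cal27 AfaR the Hedgehog median stands at 2.66, while the medians of the PRC2 and MLL list stay between -0.27 and 0.06 in the 4 models.

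FENDRR and FOXF1 form a head-to-head pair of a noncoding RNA and a transcription factor, and 15 other pairs of a noncoding gene and a nearby factor were read for comparison, FOXC2-AS1 with FOXC2 among them. Of the noncoding genes, 14 were found in the files and 5 were tested in each line. In Cal27 AfaR, ZEB1-AS1 (1.74) was the 1 noncoding gene called of 5, against 19.6% of all genes. It was called together with ZEB1 (5.37), a factor of epithelial-mesenchymal transition that went from 0.379 ± 0.124 to 15.9 ± 0.652 CPM. The ZEB1-AS1 call was lost without Cal27 parental replicate 1 (1.61), AfaR replicate 1 (1.77) or AfaR replicate 2 (1.72). In FaDu AfaR, ZEB1-AS1 (1.92) and FOXD3-AS1 (1.66) were called, 2 of 5 against 7.43% of all genes, with ZEB1 at -0.28 (adjusted p = 0.757). Both calls were lost without FaDu parental replicate 1 (1.55 for ZEB1-AS1 and 1.69 for FOXD3-AS1) or AfaR replicate 2 (1.65 and 1.43). FOXD3-AS1 also lost its call without parental replicate 2 (1.63). In Cal27 ErlR the 1 noncoding gene called of 5 was FOXD2-AS1 (1.10), against 13.5% of all genes. This call was lost without Cal27 parental replicate 2 (0.91) or ErlR replicate 1 (0.92). In FaDu ErlR 0 of 5 were called by edgeR or DESeq2, against 2.05% of all genes, with 2 under an unadjusted p of 0.05. Of the other factors of these pairs, ZEB2 (4.12) was called in Cal27 AfaR and WT1 (1.07) in FaDu ErlR.

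The list calls were recounted with 1 library left out, which also lowers the power of the fit, so a lost call does not by itself mean a smaller fold. In FaDu AfaR, 2 of 11 remained without FaDu parental replicate 1 (ASH2L and FOXN3) and 3 without FaDu AfaR replicate 2. In FaDu ErlR, 0 of 3 remained without FaDu parental replicate 1, parental replicate 2 or ErlR replicate 2, and 1 without ErlR replicate 1. In Cal27 ErlR, 6 of 13 remained without parental replicate 2 and 6 without ErlR replicate 1, and in Cal27 AfaR from 17 to 23 of 23 remained when any 1 library was left out.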

How the data were processed

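Poly(A)-selected RNA of FaDu and Cal27 cells was measured in 12 libraries, 2 for each group. The authors deposited counts, the raw number of reads per Ensembl gene on GRCh38 with ERCC spike-ins, without normalization. Per the labels, the tools were Trimmomatic 0.36, STAR 2.5.2b and featureCounts of Subread 1.5.2. The strand setting is not given in the sources used here. The authors' normalized tables, made separately for each comparison, were not used. Levels come from 1 scaling of all 12 libraries and fold changes from the fits below. GENCODE v44 gave symbols for 56948 of 58051 genes.

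Each line was fitted on its own 6 libraries with edgeR 4.0.16 under R 4.3.3 (TMM, filterByExpr, glmQLFit, glmQLFTest), with 3 residual degrees of freedom. The parental lines and the differences between lines used all 12 libraries. The script was tested on simulated data. Count intervals are exact (Clopper-Pearson) and cover counting error only, and groups at 0 were set to a floor of 3 counts. The p-values measure the spread between these libraries.

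The 5 genes and the lists were chosen with earlier results of these data known. Named were the 5 genes, called or adjacent neighbours within 1 Mb, up to 4 called genes per list, direction and comparison (and each gene of a list under 5 genes), the 10 genes most like FENDRR and 5 for each other gene; other genes named were chosen after their values were seen. Some list genes are counted but not reported here by name. Alternatives were DESeq2 1.42.0, other scalings, filters and fits, a replicate block and leaving out each library.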

Additional observations from a re-analysis of the deposited data

How the results depend on the processing

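Few reads on FENDRR, FOXF1 and FOXC2 outside Cal27 AfaR limit their comparisons in FaDu and Cal27 ErlR. FOXL1 had few reads in Cal27 parental and Cal27 ErlR, which limits it there, and more in FaDu. FENDRR stayed called in Cal27 ErlR under the 14 alternatives that could be fitted (2.44 to 4.31, largest adjusted p 0.0171) and FOXF1 under 13 of 14. Since the FENDRR and FOXF1 calls are not independent of the selection, their staying called is a description and no further support. MTHFSD changed sign in FaDu AfaR with upper-quartile factors (0.0027) and ERCC scaling (0.11), and in FaDu ErlR with ERCC scaling (0.28). Leaving out 1 library gave a range in FaDu AfaR of -0.21 to 0.058 for MTHFSD and -0.30 to 1.04 for FOXC2, and between the parental lines of -0.35 to 0.61 for FOXF1 and 3.25 to 5.13 for FENDRR. It gave 7.78 to 9.65 for FENDRR in Cal27 AfaR. The cause was not tested.

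Of the 5 genes, 1 was called in FaDu AfaR with ERCC scaling, no filter or the 4 libraries compared, and 1 in FaDu ErlR with ERCC scaling, no filter or all 12 libraries (FENDRR in this last fit). With at least 10 counts in every library 0 were called in Cal27 ErlR and 0 between the parental lines, where 1 was called with the 4 libraries compared, and fewer genes were tested there. A count between the parental lines that includes FENDRR is a description for that gene, given how it was selected and filtered. Leaving out 1 library gave 0 to 1 called in FaDu AfaR and FaDu ErlR, 1 to 2 in Cal27 ErlR and 1 to 2 between the parental lines. Within 1 Mb, ERCC scaling gave 1 neighbour called in FaDu ErlR, leaving out 1 library gave 1 to 2 in Cal27 AfaR and 0 to 1 in Cal27 ErlR, and widening to 2 Mb gave 1 in each FaDu model and 3 in each Cal27 model. A width of 500 kb gave no value, since no gene was tested. Of the lists, 11 genes were called in FaDu ErlR with ERCC scaling and 5 with no filter, and with at least 10 counts 14 in Cal27 AfaR and 8 in Cal27 ErlR. ERCC scaling set the median log2 fold change of all genes at 0.49 in FaDu ErlR. The share of all genes called under the alternative fits is not given here. Their counts therefore describe the processing and are no result about the listed genes. Leaving out 1 library gave 2 to 12 list genes in FaDu AfaR and 0 to 3 in FaDu ErlR, and for Cal27 20 to 28 with afatinib and 7 to 15 with erlotinib.

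The replicate numbers were not shown to pair the libraries, since same-numbered libraries correlated at 0.14, -0.10 and -0.11 in FaDu and -0.24, 0.11 and -0.05 in Cal27. With a replicate block FENDRR was at 4.36 between the parental lines, where its value is a description. With this block 1 of the 5 genes was called between the parental lines and 1 list gene in FaDu ErlR. In Cal27 ErlR the block left FENDRR (3.09) and FOXF1 (2.52) called, and these calls are likewise not independent of the selection.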
